A study of Mus musculus with 31 samples.

Results

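Accessible chromatin was examined at the genes of the chemokine ligands in NIH-3T3 cells. Members were the protein-coding genes of the mm10 GENCODE annotation whose symbol is Ccl, Cxcl, Cx3cl or Xcl followed by a number. This rule gave 37 of 21938 protein-coding genes and used no measured value. NIH-3T3 is a mouse embryonic fibroblast line, and the 1 library analysed comes from its parental form, which carries no transgene. The labels list no treatment for it, whereas the study's methods describe doxycycline before ATAC-seq for NIH-3T3 cells in general. ATAC-seq, in which the transposase Tn5 cuts and tags DNA free of nucleosomes, was performed on this line, and the authors deposited a list of peaks. The other 30 of the 31 samples, with overexpressed transcription factors or rtTA3G alone, were not analysed here. With 1 library no replicate error exists, so no test was made and all counts describe this library.

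Chemokines are small secreted proteins that bind G protein-coupled receptors and direct the migration of leukocytes and other cells. Inflammatory ligands such as Ccl2 and Cxcl1 are switched on by cytokines, microbial products and growth factors through NF-kappaB and related factors, and both were first isolated as genes that platelet-derived growth factor induces in mouse 3T3 fibroblasts. Homeostatic ligands are made constantly, in lymphoid tissue and mucosa (Ccl19, Ccl21, Cxcl13, Ccl25) or by stromal cells (Cxcl12), and many inflammatory ligand genes lie side by side in clusters that arose by duplication. Accessibility of a gene is not its expression, and no RNA was measured in this library.

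The list held 63456 peaks on 21 chromosomes. Each peak has a fold enrichment, the ratio of the fragments piled up at its summit to the number expected locally, each with 1 added. The fragments were solved from the fold enrichment and the −log10 p, and had a median of 29 over all peaks (quartiles 19 and 52, lowest 10), where the background held 2.81. Brackets below give exact Poisson 95% intervals of the fragments, carried to the fold enrichment. They cover counting error only, since 1 library gives no error between replicates. All 11 fibroblast markers looked up, among them Col1a1, Fn1 and Prrx1, had a peak within 1 kb of a start. So did 3 of 8 immune, 1 of 6 epithelial and 2 of 4 endothelial markers, against 53.7% of all protein-coding genes. Some were weak peaks off the start, as at Thy1 (3.41, 862 bp), Spi1 (3.22, 591 bp) and Krt8 (3.25, 929 bp).

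Fewer ligand genes than protein-coding genes at large had an accessible promoter. A peak lay within 1 kb of an annotated transcript start in 10 of 37 ligand genes (27.0%), against 53.7% of all protein-coding genes. These 10 genes were Ccl2, Ccl7, Ccl8, Ccl9, Ccl12, Ccl25, Ccl27a, Cxcl1, Cxcl5 and Cxcl10. Over a wider window, 30 of 37 (81.1%) had a peak in the gene or the 10 kb to either side, against 74.4% of all protein-coding genes. This order rested on weak peaks and on the width: it was 70.3% against 70.5% with 5 kb to either side, and 59.5% (22 genes) against 68.2% when peaks had to reach a fold enrichment of 5. Within 5 kb of a start, the shares were 56.8% and 62.8%, much closer than within 1 kb. The ligand genes are short, with a median span of 3498 bp against 17425 bp, and among genes under 10 kb the shares came closer or parted further. Of the 31 ligand genes under 10 kb, 9 (29.0%) had a promoter peak, against 35.8% of all genes of that size, and 24 (77.4%) had one in the wider window, against 57.0%. Per length of that window, the ligand genes held 0.752 peaks per 10 kb and all protein-coding genes 0.381, and among genes under 10 kb the values were 0.744 and 0.529. Of the 71 peaks in the windows of ligand genes, 51 lay away from any start, close to the share in the whole list (47192 of 63456).

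**Figure D1:**
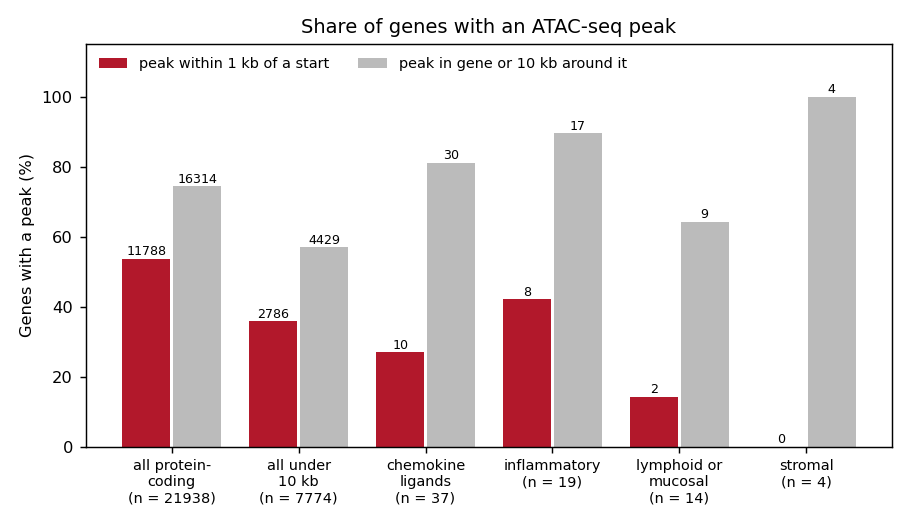
Share of genes (%) with a peak within 1 kb of an annotated start (red) or in the gene and the 10 kb around it (grey) in parental NIH-3T3 cells, for all protein-coding genes, those under 10 kb, the 37 ligand genes and their classes; numbers above the bars are genes. The inflammatory class had the highest share of promoter peaks among the ligands (8 of 19), and none of the 4 stromal ligands had one, although all 4 had a peak in the wider window.

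Sorted by the main use of the protein, the promoter peaks fell mostly on inflammatory ligands. Of these, 8 of 19 (42.1%) had a promoter peak, compared with 2 of 14 lymphoid or mucosal ligands (14.3%) and 0 of 4 stromal ligands. A peak in the wider window was present in 17 of 19, 9 of 14 and 4 of 4 genes. Over all protein-coding genes, the shares were 53.7% for the promoter and 74.4% for the wider window. Among those under 10 kb they were 35.8% and 57.0%. The median distance from the nearest start to the nearest peak was 2077 bp for inflammatory, 7303 bp for lymphoid or mucosal and 6140.5 bp for stromal ligands, and 92.5 bp over all protein-coding genes. Among genes under 10 kb the order was reversed, with a median of 4631 bp for ligand genes and 6931.5 bp for all protein-coding genes. The lymphoid or mucosal values include 4 genes of chromosome 4 whose starts have near-identical copies, described below. Without these 4, that class had a promoter peak in 2 of 10 genes and one in the wider window in 9 of 10, about the inflammatory share, and its median distance was 5020 bp. With Ccl17, Ccl20 and Ccl22 counted as inflammatory instead, a promoter peak was present in 8 of 22 inflammatory (36.4%) and 2 of 11 lymphoid or mucosal ligands (18.2%). Without Cxcl16 and Cx3cl1, the stromal class held 2 genes, 0 of them with a promoter peak. These classes are small, and 28 of the 37 genes share their neighbourhood with another ligand gene, so that members are not independent.

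**Figure D2:**
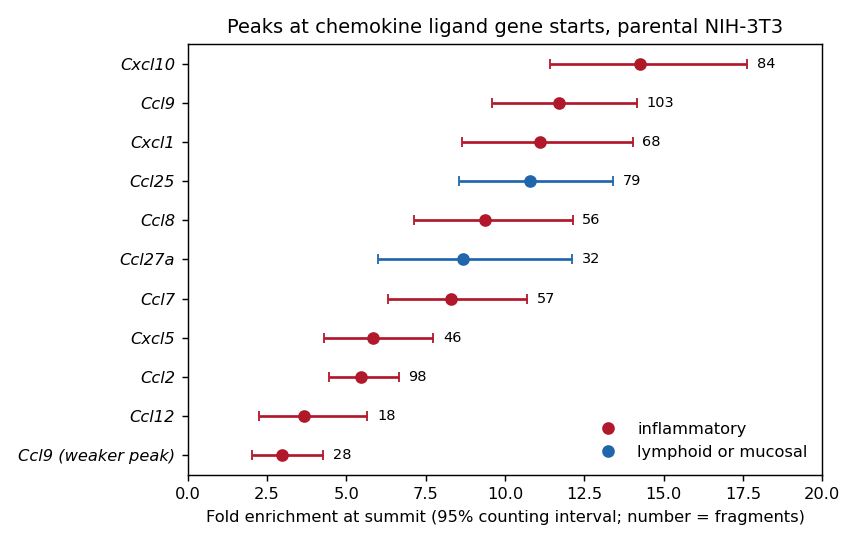
Fold enrichment at the summit of the 11 peaks within 1 kb of a ligand gene's start, with exact Poisson 95% intervals (counting error only); the number beside each is its fragments, and colour marks the class. Values ran from 2.99 at the weaker Ccl9 peak to 14.3 at Cxcl10, and neighbours in this order overlap in their intervals.

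Cxcl10, an interferon-induced ligand of Cxcr3 that attracts T cells, had the promoter peak with the highest fold enrichment of all ligand genes, 14.3 [11.4 to 17.6]. It rose to 84 fragments, fewer than at Ccl9 (103) and Ccl2 (98), and by fold enrichment stood at the 91.9th percentile of the peaks at starts in the whole list. The neighbouring Cxcl9, the other interferon-induced Cxcr3 ligand in the set, had no promoter peak. Its nearest peak lay 4458 bp away, at a start of Art3, the gene in whose intron Cxcl10 lies, with 16 fragments and a fold enrichment of 4.46. Cxcl11, another ligand of this receptor, is annotated in this build as a polymorphic pseudogene and was therefore no member. The sequence before the Cxcl10 start is shown because it carries the binding patterns of the factors known for this gene within the accessible stretch. It runs 5′ to 3′ on the minus strand of mm10 (chr5:92348890-92349139) and ends 1 base before the start. Counted from the start to the first base of each pattern, capitals mark, in order, an interferon response pattern at −213, kappaB patterns at −159 and −103 and an AP-1 pattern at −74.
Cxcl10: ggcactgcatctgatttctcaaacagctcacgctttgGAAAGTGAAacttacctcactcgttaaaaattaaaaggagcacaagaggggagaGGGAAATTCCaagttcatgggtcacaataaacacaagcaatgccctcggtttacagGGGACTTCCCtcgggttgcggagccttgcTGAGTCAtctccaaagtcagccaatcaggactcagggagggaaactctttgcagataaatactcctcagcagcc

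The 4 neutrophil-attracting ligands Cxcl1, Cxcl2, Cxcl3 and Cxcl5, which act through Cxcr2, were split. Cxcl1 had a peak of 1068 bp over its start with 68 fragments and a fold enrichment of 11.1 [8.65 to 14.02]. Cxcl5 had 46 fragments and 5.84 [4.31 to 7.74] at its start. Cxcl2 and Cxcl3 had none, with the nearest peaks 2862 bp and 2077 bp away. The nearest Cxcl2 peak was weak (15 fragments, 3.88), whereas the nearest Cxcl3 peak, in an exon of the gene, had 34 fragments and a fold enrichment of 8.56. This split is not visible in the kappaB pattern. Each of the 4 genes carries a symmetric kappaB pattern between 66 and 90 bases before its start, read once on each strand. The last 120 bases before each start are shown because genes with and without a promoter peak share this element. All run 5′ to 3′ on the plus strand of mm10, and capitals mark the kappaB pattern. They lie at chr5:90891121-90891240, chr5:90759240-90759359, chr5:90903751-90903870 and chr5:90785983-90786102, and Cxcl5, Cxcl2 and Cxcl3 were chosen after their values were seen.
Cxcl1 (promoter peak): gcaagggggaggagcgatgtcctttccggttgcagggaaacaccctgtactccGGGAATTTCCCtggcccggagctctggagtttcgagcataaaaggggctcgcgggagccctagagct
Cxcl5 (promoter peak): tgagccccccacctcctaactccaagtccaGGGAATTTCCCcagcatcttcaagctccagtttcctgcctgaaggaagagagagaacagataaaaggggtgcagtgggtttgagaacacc
Cxcl2 (no promoter peak): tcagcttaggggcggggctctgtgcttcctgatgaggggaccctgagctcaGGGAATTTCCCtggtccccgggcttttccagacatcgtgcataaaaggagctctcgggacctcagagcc
Cxcl3 (no promoter peak): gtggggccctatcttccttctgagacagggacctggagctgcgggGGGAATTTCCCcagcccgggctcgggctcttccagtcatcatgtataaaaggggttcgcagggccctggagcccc

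The monocyte-attracting ligands Ccl2, Ccl7, Ccl8 and Ccl12, ligands of Ccr2 or of other receptors of its family, all had a promoter peak. Ccl2 had 98 fragments at its start and a fold enrichment of 5.47 [4.45 to 6.65], with 17.1 fragments expected there, about as many as at its stronger upstream peak. This upstream peak, 1330 bp wide with its summit at −2452 bp, had 142 fragments against 16.3 expected, a fold enrichment of 8.28. Ccl7 had 57 fragments and 8.29 [6.32 to 10.7], and Ccl12 only 18 fragments and 3.66 [2.25 to 5.67]. The Ccl8 peak was high (56 fragments, 9.38 [7.13 to 12.1]) but lay inside the gene. Its edge was 628 bp and its summit 1024 bp downstream of the start, in an intron, so the Ccl8 start itself was not covered. By fragments Ccl2 stood above the other 3 genes, whereas by fold enrichment it stood below Ccl7 and Ccl8, since the expected number was 5.99 and 5.08 there. The last 60 bases before these starts are shown, although Ccl7, Ccl8, Ccl12 and Ccl2 were chosen after their values were seen, because they differ in an exact match to TATAAA. Capitals mark TATAAA, present 30 to 32 bases before the start of Ccl7, Ccl8 and Ccl12 and not found in this stretch of Ccl2. Only these exact letters were searched, and the aataaa in the Ccl2 stretch differs from them by a single letter. The stretches therefore do not show that Ccl2 lacks such an element. All run 5′ to 3′ on the plus strand of mm10, at chr11:82035511-82035570, chr11:82045652-82045711, chr11:82115125-82115184 and chr11:82101785-82101844.
Ccl2: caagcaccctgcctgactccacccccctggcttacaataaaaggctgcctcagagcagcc
Ccl7: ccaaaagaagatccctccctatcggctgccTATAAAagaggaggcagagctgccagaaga
Ccl8: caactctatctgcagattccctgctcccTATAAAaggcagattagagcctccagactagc
Ccl12: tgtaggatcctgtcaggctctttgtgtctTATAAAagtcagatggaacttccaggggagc

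Ccl9, a macrophage-attracting ligand of Ccr1, had the tallest promoter peak by fragments (103), with a fold enrichment of 11.7 [9.58 to 14.2]. This peak lay in an intron, at the start of a processed, non-coding transcript of the gene. The start of its coding transcript lay 252 bp from a second, weak peak with 28 fragments and a fold enrichment of 2.99. The 250 bases before the non-coding start are on the minus strand of mm10 (chr11:83577143-83577392) and are shown as the promoter-proximal sequence of the second-highest start peak. Capitals mark an interferon response pattern at −66, and neither a kappaB nor an AP-1 pattern was found in this stretch.
Ccl9: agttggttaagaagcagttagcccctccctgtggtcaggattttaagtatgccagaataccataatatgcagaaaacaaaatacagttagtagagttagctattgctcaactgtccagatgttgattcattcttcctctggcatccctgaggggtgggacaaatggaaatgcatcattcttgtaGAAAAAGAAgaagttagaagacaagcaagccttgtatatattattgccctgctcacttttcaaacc

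The remaining inflammatory ligands had no promoter peak. Ccl1, a ligand of Ccr8, had its nearest peak 1806 bp from its coding start (35 fragments, 5.56). Its annotated record is far longer than its coding transcripts because of a single processed transcript, and 10 peaks lie in it and around it. For Ccl5, which attracts T cells and monocytes, the nearest peak lay 3846 bp upstream with 67 fragments and a fold enrichment of 11.1. The macrophage inflammatory protein genes Ccl3 and Ccl4 are neighbours, and their nearest peak was the same one. It lay 3283 bp from Ccl4 and 16512 bp from Ccl3, with 18 fragments and a fold enrichment of 4.64. The nearest peak of Ccl6, a Ccr1 ligand, was 4631 bp away (50 fragments, 8.89). Among the eotaxin genes, named for attracting eosinophils through Ccr3, Ccl11 had its nearest peak 8895 bp, Ccl24 9420 bp and Ccl26 17796 bp from a start. The Ccl11 peak had 182 fragments and a fold enrichment of 13.8, both the highest among peaks away from starts within 10 kb of a ligand gene. That of Ccl24 had 17 fragments and a fold enrichment of 4.50, and that of Ccl26, outside its 10 kb window, a fold enrichment of 14.3.

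**Figure D3:**
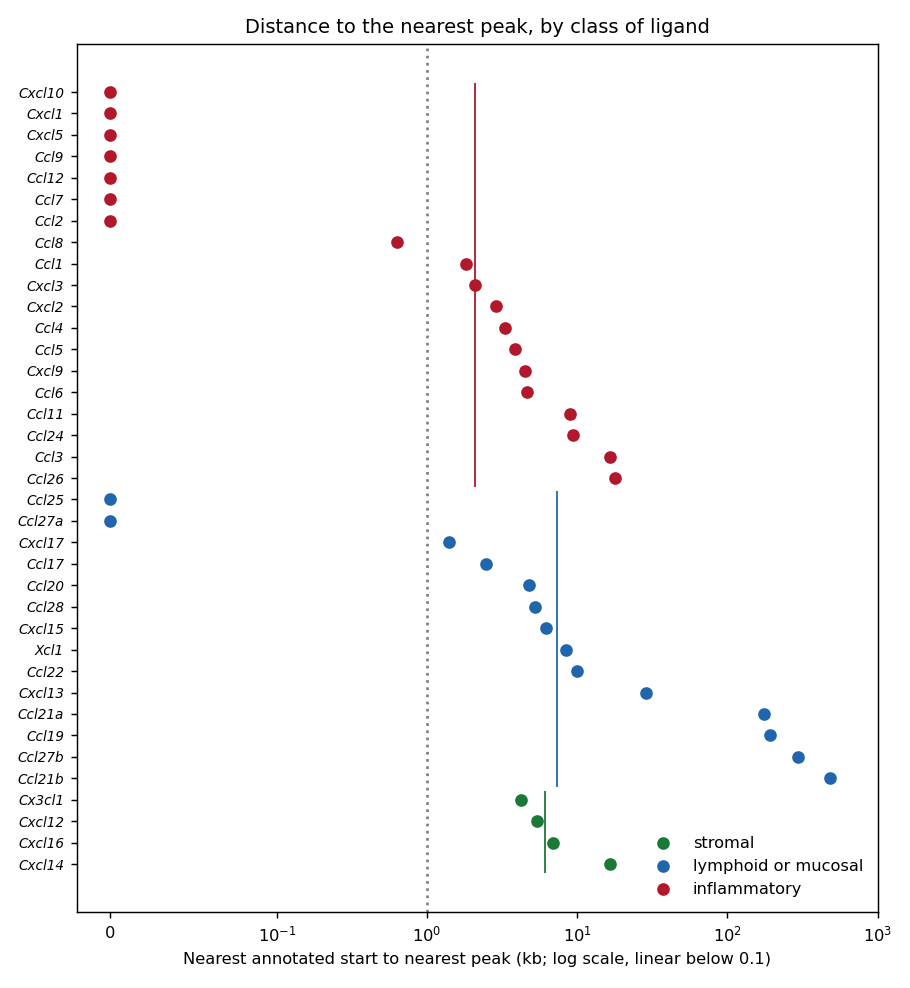
Distance in kb (log scale, linear below 0.1 kb) from the nearest annotated start of each of the 37 ligand genes to the nearest peak, by class; vertical lines mark class medians, the dotted line 1 kb. Of the 10 genes left of the dotted line 8 are inflammatory, and 4 genes of the chromosome 4 cluster lie farthest out, at 175498 to 481258 bp.

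The 4 stromal ligands lacked a promoter peak although the cells are fibroblasts. Cxcl12, the Cxcr4 ligand that stromal cells use to hold stem cells and lymphocytes, had its nearest peak 5424 bp from a start. This peak had 20 fragments and a fold enrichment of 4.94, and a second one in the gene had 23 fragments and 5.38. Cxcl14, an epithelial and fibroblast ligand, had a single peak 16466 bp away with 18 fragments and 4.99. Cxcl16 and Cx3cl1 are made as membrane-bound proteins and bind Cxcr6 and Cx3cr1. Near Cxcl16, a peak of 86 fragments (12.3) lay at the start of the neighbouring Med11, and a peak of 45 fragments (8.34) lay with its summit at −8084 bp. Cx3cl1 had 4 peaks, the nearest at 4224 bp (23 fragments, 4.35), and the highest, with its summit 16263 bp downstream of its start, had 96 fragments and a fold enrichment of 9.16. The stretch before the Cxcl12 start is shown, chosen after its value was seen, because it is rich in GC boxes yet had no peak. It runs on the plus strand of mm10 (chr6:117168285-117168534), and capitals mark GGGCGG on either strand, 5 times in all with the last 2 sharing a base.
Cxcl12: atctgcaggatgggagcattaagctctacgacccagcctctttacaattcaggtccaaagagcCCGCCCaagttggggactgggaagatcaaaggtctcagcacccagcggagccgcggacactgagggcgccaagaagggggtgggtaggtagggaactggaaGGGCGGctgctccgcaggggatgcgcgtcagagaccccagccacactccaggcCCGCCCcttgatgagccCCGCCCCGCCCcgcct

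Both lymphoid or mucosal ligands with a promoter peak also had coding starts away from it, and the Ccl25 peak was shared with another gene. Ccl25, a Ccr9 ligand of thymus and gut, had 79 fragments and a fold enrichment of 10.8 [8.56 to 13.4], but the same peak covers the start of Elavl1, a widely expressed RNA-binding protein gene. Another start of coding Ccl25 transcripts lay 20739 bp from a peak. Ccl27a, a Ccr10 ligand of skin, had 32 fragments and 8.67 [6.01 to 12.1] at the starts of its long transcripts. These include the coding start of the gene record, whereas the starts of short coding transcripts lay 3403 and 3415 bp from a peak. Of the others, Cxcl17, a mucosal ligand, had a peak of 40 fragments (8.36) in an intron 1405 bp from a start. Ccl17 and Ccl22, both ligands of Ccr4, had weak peaks at 2460 bp (20 fragments, 4.08) and 9974 bp (17 fragments, 4.09). The nearest peaks of Ccl20, the Ccr6 ligand, and Xcl1, the Xcr1 ligand, had 19 and 15 fragments at 4792 and 8449 bp. Ccl28, a mucosal ligand, had 6 peaks in its wide window, with the nearest at 5248 bp (33 fragments, 8.93) at the start of a non-member gene. Cxcl15, a lung ligand, had its nearest peak 6157 bp away, which is the one in the Cxcl3 exon.

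Altogether 7 ligand genes had no peak in the gene or the 10 kb around it: Ccl3, Ccl26, Cxcl13, Ccl19, Ccl21a, Ccl21b and Ccl27b. Of the 27 genes without a promoter peak, 11 had their nearest peak within 5 kb, 11 at 5 to 20 kb and 5 farther away. Those 5 were Cxcl13, the B cell follicle ligand of Cxcr5, at 28539 bp, and 4 genes of chromosome 4 at 175498 to 481258 bp. These 4 are Ccl19 and the copies Ccl21a, Ccl21b and Ccl27b. Each of the 4 starts has 2 to 5 near-identical copies elsewhere in the genome (at least 450 bp at 98% identity), and no other ligand gene has any. Since only uniquely mapped reads were kept, a lack of peaks there cannot be told apart from a lack of mappable sequence.

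The clusters differed in how densely peaks were spaced. Genes on 1 chromosome were chained into a cluster when gaps were at most 500 kb, which gave 7 clusters with 28 genes. Of these, 9 (32.1%) had a promoter peak, and so did 1 of the 9 genes outside clusters (11.1%), against 53.7% of all protein-coding genes. Every inflammatory ligand lay in a cluster, so this contrast cannot be told apart from that of the classes. The genome average, which includes stretches without genes, was 2.40 peaks per 100 kb. Windows of genes with 10 kb on either side were denser. They held 0.381 peaks per 10 kb over all protein-coding genes and 0.529 over those under 10 kb. The chromosome 11 clusters Ccl2 to Ccl1 (270.1 kb, 6 genes, 28 peaks) and Ccl5 to Ccl4 (138.9 kb, 5 genes, 15 peaks) held 9.65 and 9.44 per 100 kb, counted with 10 kb on either side. The chromosome 5 cluster Cxcl5 to Cxcl2 (146.6 kb, 5 genes, 14 peaks) held 8.40, and the chromosome 8 cluster of Ccl22, Cx3cl1 and Ccl17 (66.4 kb, 6 peaks) held 6.94 with no promoter peak at all. Cxcl9 and Cxcl10 held 4.21 and the Ccl26 and Ccl24 pair 3.07. The chromosome 4 cluster from Ccl27a to Ccl21a stood far below them, with 2 peaks in 1004.5 kb, or 0.195 per 100 kb, both within reach of Ccl27a alone. The other 4 of its 5 genes are those with near-identical copies, so this density too cannot be told apart from a lack of mappable sequence. The share of genes with a promoter peak differed between clusters of about equal density: it was 4 of 6 in Ccl2 to Ccl1 and 1 of 5 in Ccl5 to Ccl4. The 4 include Ccl8, whose start was not covered, and Ccl12 with its weak peak.

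**Figure D4:**
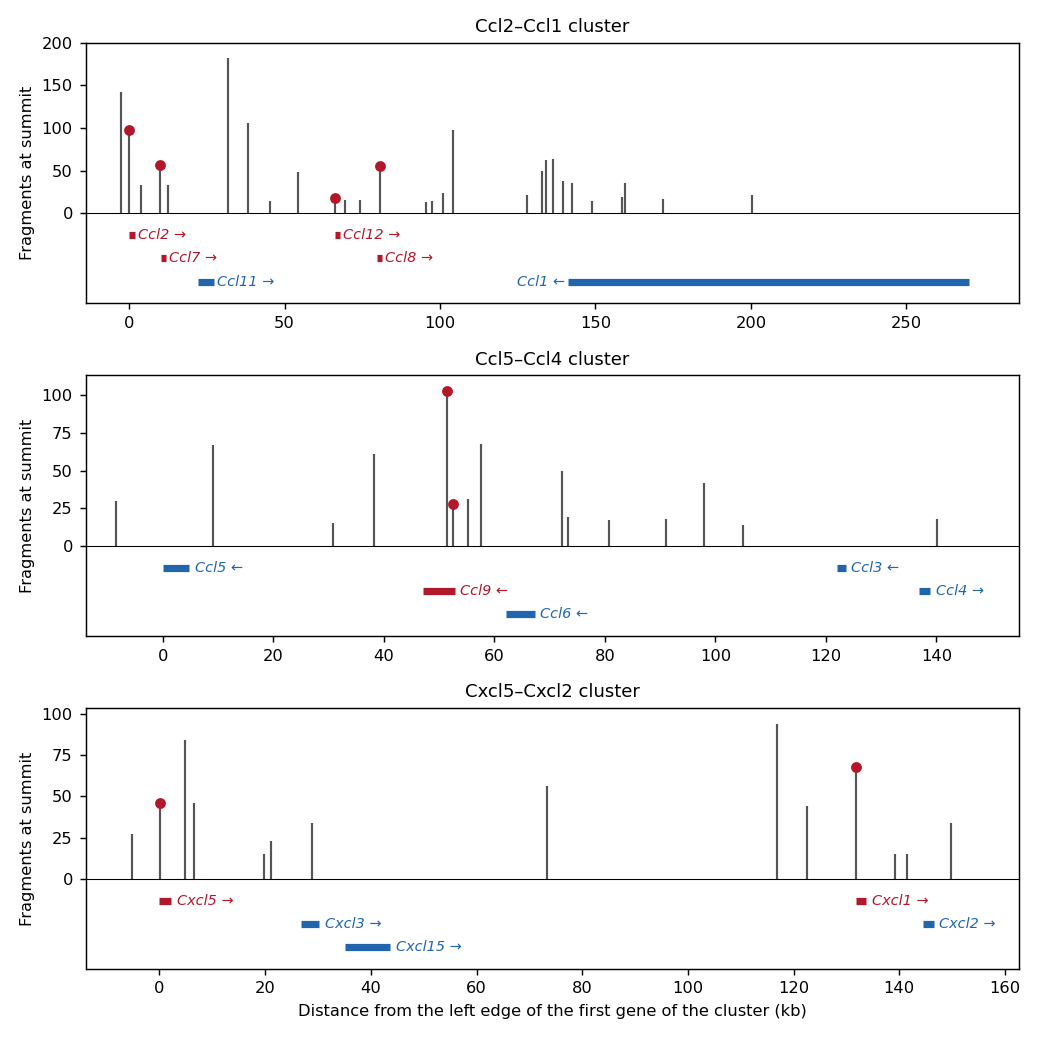
Peaks of the 3 densest clusters: the height of a line gives the fragments at the summit, and the x axis the distance in kb from the left edge of the first gene; a red dot marks a peak within 1 kb of a ligand gene's start. Bars below show the ligand genes (red with, blue without a promoter peak; arrows give the strand), and several of the tallest lines stand between ligand genes.

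Several of the highest peaks in these clusters stood in the gaps between ligand genes. In the Ccl2 to Ccl1 cluster, the peak beyond Ccl11 (182 fragments) was followed, 38.4 kb into the cluster, by one of 106 fragments with a fold enrichment of 13.2, and one at 104.1 kb had 98 fragments and 13.5. The latter pair lay more than 10 kb from any ligand gene. In the Cxcl5 to Cxcl2 cluster, peaks of 56 and 94 fragments (12.5 and 12.1) stood 73.4 and 116.9 kb in, between Cxcl15 and Cxcl1. This cluster held 3 peaks within 1 kb of an annotated start of any gene. Besides those of Cxcl5 and Cxcl1, either the peak at 73.4 kb or that at 116.9 kb lay at a start of another gene. Within the gene windows, 71 peaks were counted, 11 at starts of ligand genes, 9 only at starts of other genes and 51 away from any start. In the whole list, 47192 of 63456 peaks lay away from any start. The median fold enrichment was 8.67 for the 11 start peaks, against 8.03 for all peaks at starts, and 5.38 for the 51, against 5.54 for all peaks away from starts. By height, then, the ligand peaks were ordinary for their position.

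Sequence around the summits away from starts was searched in 201-base windows, on both strands. TGACTCA, the AP-1 pattern bound by Fos and Jun, was present in 27 of 51 windows (52.9%), against 36.5% of all peaks away from starts. The kappaB pattern was in 4 of 51 (7.84%, against 2.1%) and the interferon response pattern GAAANNGAA in 4 of 51 (7.84%, against 5.76%). Counts of 4 allow no more than a description. The 4 kappaB windows belonged to Cxcl16, Ccl1, Ccl5 and Ccl28, and the Ccl5 peak also held the interferon response pattern. Most peaks of the 3 densest clusters lay away from starts, as did most of the whole list. Shown are the peaks away from starts with the highest fold enrichment in the gene windows of these 3 clusters. With them is the upstream peak of Ccl2, added after its value was seen. All are 201 bases of the plus strand of mm10 centred on the summit, with AP-1 and interferon response patterns in capitals. They lie at chr11:82067133-82067333, chr11:83563862-83564062, chr5:90909064-90909264 and chr11:82033019-82033219, and 3 of the 4 hold AP-1, its first base +17 (Ccl9), −11 (Cxcl2) and −27 bases (Ccl2) from the summit.
Ccl11, +9410 bp: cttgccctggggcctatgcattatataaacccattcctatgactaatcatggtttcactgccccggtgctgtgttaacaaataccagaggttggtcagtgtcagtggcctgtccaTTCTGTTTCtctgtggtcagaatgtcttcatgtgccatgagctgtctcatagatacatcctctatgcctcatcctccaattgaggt
Ccl9, +14674 bp: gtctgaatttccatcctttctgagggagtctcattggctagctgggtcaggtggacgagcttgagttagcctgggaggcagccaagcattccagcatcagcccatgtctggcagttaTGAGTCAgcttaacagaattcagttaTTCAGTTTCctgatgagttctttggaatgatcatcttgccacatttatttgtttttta
Cxcl2, +5293 bp: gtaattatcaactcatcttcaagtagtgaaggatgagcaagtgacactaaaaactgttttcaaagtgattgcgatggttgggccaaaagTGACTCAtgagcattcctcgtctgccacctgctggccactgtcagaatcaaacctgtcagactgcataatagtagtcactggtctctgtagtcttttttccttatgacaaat
Ccl2, −2452 bp: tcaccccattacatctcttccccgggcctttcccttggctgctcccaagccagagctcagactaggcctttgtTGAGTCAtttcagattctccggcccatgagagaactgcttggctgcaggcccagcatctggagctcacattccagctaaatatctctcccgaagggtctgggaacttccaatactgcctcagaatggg

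The ligand promoters were poor in CpG. Observed over expected CpG within 500 bp of the gene start had a median of 0.216, against 0.552 over all protein-coding genes. At a limit of 0.6, 33 of 37 promoters were CpG-poor, and 9 of these 33 (27.3%) had a promoter peak, close to the 29.1% of all CpG-poor genes. The classes lay on either side of that share, with 8 of 19 inflammatory (42.1%) and 1 of 13 lymphoid or mucosal CpG-poor promoters (7.69%). The latter include the chromosome 4 genes with near-identical copies. The 4 CpG-rich promoters were those of Ccl25 (1.08), Cxcl12 (0.783), Cxcl14 (0.719) and Cxcl16 (0.608). Of these only Ccl25, with its shared start, had a peak, against 82.8% of all CpG-rich genes. The 3 others are stromal ligands.

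**Figure D5:**
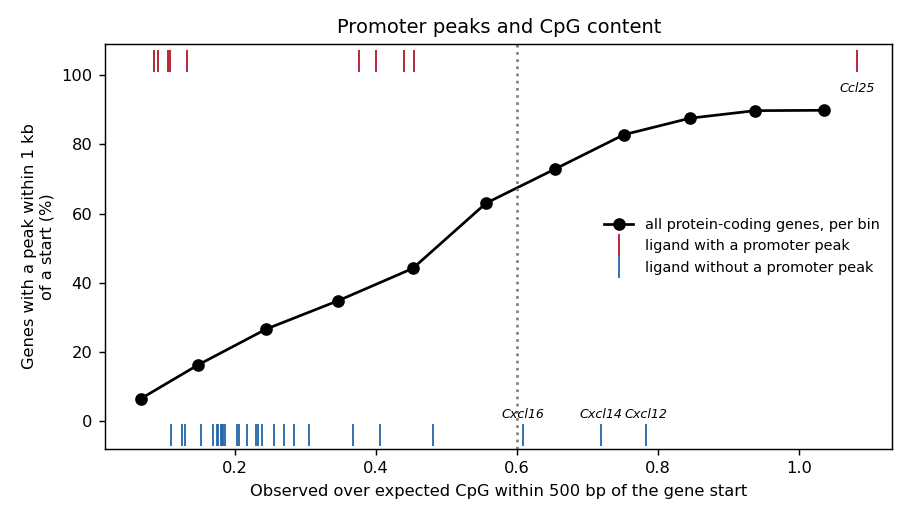
Share of all protein-coding genes (%) with a peak within 1 kb of a start in bins of observed over expected CpG (black), with each ligand gene as a tick at its own CpG value: red above for a promoter peak, blue below for none; the dotted line marks 0.6. The ticks crowd at low CpG, where few genes of any kind have a peak, and Cxcl16, Cxcl14 and Cxcl12 lie without a peak where most genes have one.

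Promoter patterns were searched from 250 bases before to 50 after the gene start, on both strands. The kappaB pattern was present in 8 of 37 ligand promoters (21.6%), against 4.89% of all protein-coding promoters. The 8 were Cxcl1, Cxcl2, Cxcl3, Cxcl5, Cxcl10, Ccl5, Ccl9 and Ccl20, of which 7 are inflammatory. It occurred in 4 of the 10 genes with a promoter peak and 4 of the 27 without. For Ccl9, the searched window at its coding start lay outside its start peaks. TATAAA was in 12 of 37 (32.4%, against 12.6%), 10 of them inflammatory, and the GC box GGGCGG in 6 of 37 (16.2%, against 43.0%). These shares describe letters in a window and say nothing about the binding of a factor.

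Receptors of the ligands were without accessible promoters. None of 19 chemokine receptor genes looked up had a promoter peak, against 53.7% of all protein-coding genes. Their nearest peaks lay 1818 bp (Ccr4) to 95582 bp (Ccr3) from a start, and that of Cxcr4, the receptor of Cxcl12, lay 78606 bp away. Among the 4 atypical receptors, which bind chemokines without classical signalling, Ackr3, a scavenger of Cxcl12, had one with a fold enrichment of 4.28. The platelet chemokine genes Pf4 and Ppbp, whose symbols fall outside the rule, had none. By contrast all 17 genes of NF-kappaB and the pathways that induce ligands had one, among them Rela (5.94), Nfkbia (9.08), Pdgfrb (7.49) and Ifngr1 (14.3), against the 53.7% of all protein-coding genes. Over all genes, 29.1% of CpG-poor and 82.8% of CpG-rich genes had a promoter peak. The CpG content of the receptor and pathway genes was not compared, so its part in this contrast was not tested.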

How the data were processed

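The peak list of 1 ATAC-seq library of parental NIH-3T3 cells was analysed. Per the labels and methods, the authors aligned reads to mm10 with STAR (2.5.3a in the submitters' processing notes), kept uniquely mapped reads, discarded duplicates (Picard) and ran MACS2 (2.1.1.20160309) on whole fragments. No shift for the Tn5 cut is described. The deposited fold enrichment divides the fragments over a summit by those expected locally, after adding 1 to both, and is thus a ratio. The deposited −log10 p-value and q-value come from a Poisson model at the summit, and the deposited score holds the −log10 q multiplied by 10 without decimals. The deposited peak starts, ends and summits were written counted from 1. The depth of the library is not given by a peak list.

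Fragments at each summit were solved from the fold enrichment and −log10 p, and 99.9968% were within 0.02 of a whole number. Genes and transcript starts came from GENCODE M21 and sequences from GRCm38, the same build as mm10. Copies were sought with BLAST 2.17.0. The scripts ran under Python 3.11.15 with SciPy 1.17.1 and pandas 2.3.3, and were tested on simulated data. Every gene with a promoter peak, and every gene with a peak in its window, was named. Sequences were shown of the 3 start peaks with the highest fold enrichment and of the highest other peak in each of 3 clusters, with additions named as such. The members, classes, gene lists and strata of length and CpG were chosen with earlier results of these data known. Of the receptor list, 1 gene is not reported here. Alternatives were other distances, transcripts, flanks, cluster gaps, peak thresholds and class assignments.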

Additional observations from a re-analysis of the deposited data

How the results depend on the processing

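No paired analysis was possible because 1 library was analysed and no test was made. Under the alternatives, 107 recomputed counts stayed within 1.5 times those given, a wide margin for small counts, and 10 moved further. Leaving out the 4 genes with near-identical copies was added after seeing the data. With promoters extended to 5 kb, 21 ligand genes had a peak: 15 inflammatory, 5 lymphoid or mucosal and 1 stromal, 18 in clusters and 3 outside, a share of 56.8% against 62.8% of all protein-coding genes. For genes outside clusters the count was 2 with promoters of 2 kb or with a cluster gap of 100 kb. The wider-window share fell to 59.5% at a fold enrichment of at least 5, below the 68.2% of all genes, and to 70.3% against 70.5% with 5 kb flanks. It stayed above that of all genes with 50 kb flanks (89.2% against 84.2%) and at the strictest q (78.4% against 71.9%). Peaks in the windows numbered 152 with 50 kb flanks and 43 at a fold enrichment of at least 5. These changes follow from wider windows, smaller clusters or fewer peaks. Ccl8 lost its promoter peak when the peak had to cover the start or only its summit counted, and Ccl12 lost it with the strictest q or when a fold enrichment of 5 was required. Summits held 10 fragments at least, so that weaker accessibility was not detectable at this depth.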
